A study of Mus musculus with 2 samples.

Results

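The Ikaros family of transcription factors was examined in CH12.LX, an immortalized B-cell lymphoma line of the mouse. The members are Ikzf1, which encodes Ikaros, Ikzf2 (Helios), Ikzf3 (Aiolos), Ikzf4 (Eos) and Ikzf5 (Pegasus). They were chosen by symbol and found through their GENCODE gene identifiers, and they are 5 of 43346 annotated genes in the deposited tables. The cells were grown from strain B10.H-2aH-4bp/Wts, and the labels give no treatment, genotype change or age. RNA over 200 nt was sequenced in 2 libraries from separate biosamples, biological replicates 1 and 2 of 1 group, so levels can be compared between genes and between replicates but not between conditions. Replicate 1 held 24469094 expected counts and replicate 2 held 23586580. Levels are in TPM, the relative abundance of transcripts after correction for their length, with an equal total in every library, and errors are SDs over the 2 libraries (n = 2 throughout).

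Proteins of this family carry C2H2 zinc fingers at both ends: the N-terminal cluster binds DNA, and the C-terminal pair lets family members bind each other. Alternative splicing of Ikaros can remove N-terminal fingers, and the shortened proteins can still pair with full-length ones while binding DNA poorly. Ikaros is required for lymphocyte development and Aiolos acts in B-cell maturation, whereas Helios and Eos are best known from T cells, and Pegasus is the most divergent member.

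CH12.LX expressed Ikzf3 most strongly, Ikzf1 at a lower level and Ikzf5 lower still, while Ikzf4 and Ikzf2 were close to 0. Of the 5 members, 3 reached 1 TPM in both libraries, against 45.9% of the 21474 protein-coding genes, whose median was 0.41 TPM. Nearly all counts of Ikzf1 and Ikzf5, and most of those of Ikzf3, lay on transcripts that encode every N-terminal finger. The annotation limits what these counts can show. It lists no coding form of Ikzf3 with fewer fingers, and no complete coding form of Ikzf1 without the second and the third.

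The fingers were located by their cysteine and histidine spacing in the annotated coding sequences of GENCODE M21. Ikzf1, Ikzf2, Ikzf3 and Ikzf4 each encode 4 N-terminal and 2 C-terminal fingers, and Ikzf5 encodes 3 and 2. The second N-terminal finger is shown because its peptide was identical, 21 of 21 residues, in Ikzf1 to Ikzf4 while the DNA differed, with 43 of 63 bases the same in all 4 genes. The capitals mark the codons of the 2 cysteines and 2 histidines that hold the zinc. On mm10 the Ikzf1 sequence lies at chr11:11754024-11754086 on the plus strand. The others lie on the minus strand, at chr1:69570581-69570643 for Ikzf2, chr11:98488940-98489002 for Ikzf3 and chr10:128640229-128640291 for Ikzf4.
Ikzf1 finger N2: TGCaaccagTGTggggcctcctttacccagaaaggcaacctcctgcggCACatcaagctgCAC
Ikzf2 finger N2: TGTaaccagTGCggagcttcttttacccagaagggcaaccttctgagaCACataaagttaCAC
Ikzf3 finger N2: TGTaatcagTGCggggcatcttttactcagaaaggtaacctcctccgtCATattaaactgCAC
Ikzf4 finger N2: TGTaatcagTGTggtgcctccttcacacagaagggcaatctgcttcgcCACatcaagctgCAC

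The other fingers were less alike. In the first N-terminal finger 16 of 21 residues were the same in Ikzf1 to Ikzf4, and in the third and the fourth 17 of 21. Ikzf3 differed from Ikzf1 most in the first finger, at 16 of 21 identical residues, and least in the second, followed by the third at 20 of 21. None of the 3 N-terminal fingers of Ikzf5 shared more than 9 of 21 residues with any finger of Ikzf1, whereas its first C-terminal finger shared 14 of 21. The first finger of Ikzf5, at chr7:131393759-131393821 on the minus strand, is shown beside the Ikzf1 finger it matched best, the third, at chr11:11754108-11754170, with capitals as before.
Ikzf5 finger N1: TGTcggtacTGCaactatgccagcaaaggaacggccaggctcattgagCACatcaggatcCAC
Ikzf1 finger N3: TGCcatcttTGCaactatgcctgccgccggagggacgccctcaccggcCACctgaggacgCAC

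Over whole proteins, Ikaros and Aiolos shared 53.2% of aligned positions, Ikaros and Helios 52.3%, and Ikaros and Eos 47.2%. Pegasus shared between 22.2% and 23.2% with each of the other members. The proteins are 515 residues long for Ikaros, 526 for Helios, 507 for Aiolos, 586 for Eos and 419 for Pegasus.

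Ikzf3 (ENSMUSG00000018168.8), at chr11:98464902-98546031 on the minus strand, had 99.75 TPM in replicate 1 and 90.33 TPM in replicate 2, from 5348 and 4659 expected counts. The mean was 95.04 ± 6.66 TPM, which placed it at rank 1408 of the protein-coding genes, within the top 6.56%. Ikzf3 alone made up 76.3% ± 0.742 of the summed TPM of the family.

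Ikzf1 (ENSMUSG00000018654.13), at chr11:11685003-11772926 on the plus strand, had 25.40 TPM in replicate 1 and 21.25 TPM in replicate 2, from 2479 and 2042 expected counts. The mean of 23.3 ± 2.93 TPM gave rank 4408, within the top 20.5%, and 18.7% ± 0.864 of the family. The 2 libraries of Ikzf3 lay above both libraries of Ikzf1 by more than the SDs. The ratio of Ikzf3 to Ikzf1 in gene TPM was 3.93 in replicate 1 and 4.25 in replicate 2, or 4.09 ± 0.229. Over transcripts with a complete coding sequence alone the ratio was 2.83 ± 0.152, since part of the Ikzf3 level lay on transcripts without one.

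Ikzf5 (ENSMUSG00000040167.11), at chr7:131388652-131410521 on the minus strand, had 6.37 TPM in replicate 1 and 5.97 TPM in replicate 2, from 533.51 and 496 expected counts. It averaged 6.17 ± 0.283 TPM, ranked 7670 (top 35.7%) and made up 4.96% ± 0.169 of the family. Ikzf1 exceeded it in both libraries, by a ratio of 3.77 ± 0.303. In M21 its exons share 4652 bases with those of Pstk, a selenocysteine pathway kinase gene on the opposite strand with 355 and 301 counts. Whether counting used strand is not given in the sources used here, so reads of these 2 genes may not be told apart there.

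Ikzf4 (ENSMUSG00000002578.11), at chr10:128630843-128645991 on the minus strand, had 7 counts in replicate 1 and 1 in replicate 2, or 0.07 and 0.02 TPM. The exact 95% Poisson intervals were 2.81 to 14.4 and 0.0253 to 5.57 counts. Ikzf2 (ENSMUSG00000025997.9), at chr1:69531214-69687245 on the minus strand, had 1 count and 2 counts, or 0.05 and 0.01 TPM. Its intervals were 0.0253 to 5.57 and 0.242 to 7.22 counts. Both genes lay below Ikzf5 in both libraries, and at this depth their order relative to each other could not be set. Intervals on counts cover counting error only, as the tables do not separate molecules from their PCR copies.

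**Figure D1:**
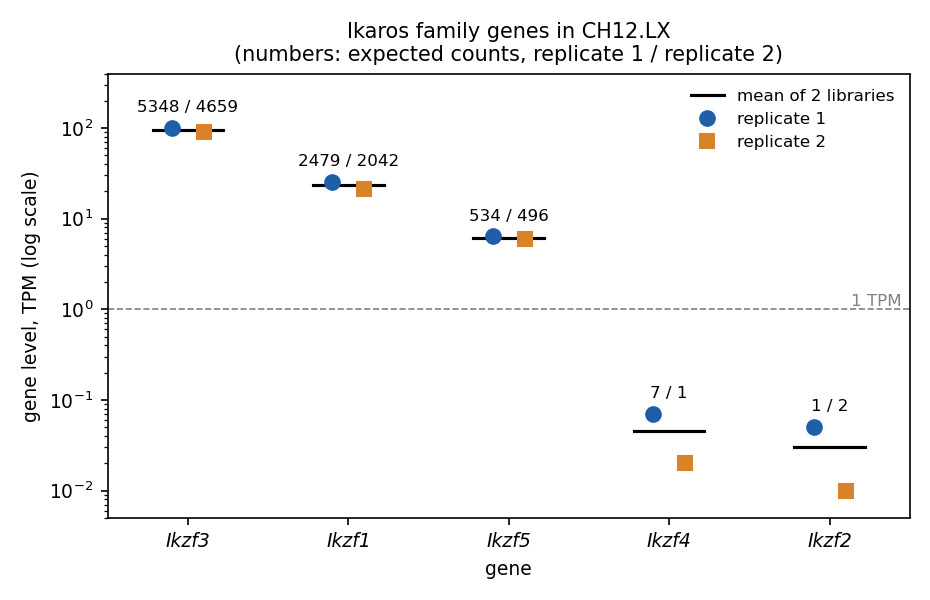
Level of each Ikaros family gene in TPM on a log axis, with replicate 1 as circles, replicate 2 as squares and a bar at their mean (n = 2). Ikzf3, Ikzf1 and Ikzf5 lie above the dashed line at 1 TPM without overlap, and Ikzf4 and Ikzf2 lie below it with 7 counts or fewer; the printed pairs are expected counts.

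Isoforms were compared because the finger-encoding exons can be skipped. In Ikzf1 to Ikzf4 alike, exon 4 of the reference transcript encodes the first N-terminal finger, exon 5 the second and the third, exon 6 the fourth, and exon 8 both C-terminal fingers. The tables list 32 transcripts of the members, of which 24 matched M21 by identifier and length. The 8 without a match are 7 of the 8 Ikzf4 transcripts and 1 of Ikzf5, so their exons were not used here. Isoforms outside the annotation cannot appear in these tables.

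For Ikzf1, the full-length transcript Ikzf1-204, which encodes 515 residues and all 6 fingers, took 91.74% of the gene's TPM in replicate 1 and 95.11% in replicate 2, or 93.4% ± 2.38. It held 2406.15 and 2002.75 of the expected counts. Such a share for the leading transcript lay at percentile 77.5 of 7063 expressed protein-coding genes with several matched transcripts, whose median was 75.5%. Ikzf1-203, which adds a 60 nt exon ahead of the finger exons and encodes 535 residues with all fingers, took 1.89% ± 0.495.

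Ikzf1-202 skips exon 4 and so lacks the first N-terminal finger, and it ends before the C-terminal fingers, leaving 198 residues. Its share was 5.05% in replicate 1 and 3.35% in replicate 2, but it rested on 18.44 and 9.82 expected counts. The deposited credibility bounds of its TPM, whose level is not stated, ran from near 0 (0.000796 in replicate 1 and 0.000372 in replicate 2) to 1.58 and 1.08. Ikzf1-201, which skips the same exon but keeps the C-terminal fingers in 428 residues, had 0 counts in both libraries. Its TPM bounds ran from near 0 to 1.12 in replicate 1 and 0.60 in replicate 2, so the 0 counts do not show its absence. As assigned, transcripts with every N-terminal finger held 95.3% ± 1.89 of Ikzf1 TPM and 99.4% ± 0.219 of its counts. Exon 8 makes up 4046 of the 5163 nt of Ikzf1-204. Of that exon Ikzf1-201 holds 918 nt and Ikzf1-202 none, so reads of the rest could not be assigned to either. No matched Ikzf1 transcript with a complete coding sequence lacks the second and the third fingers.

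The skipped exon is shown because it is what separates Ikzf1-202 and Ikzf1-201 from the full-length form. It spans chr11:11748311-11748571 on the plus strand, 261 nt, and the capitals mark the first finger.
Ikzf1 exon 4: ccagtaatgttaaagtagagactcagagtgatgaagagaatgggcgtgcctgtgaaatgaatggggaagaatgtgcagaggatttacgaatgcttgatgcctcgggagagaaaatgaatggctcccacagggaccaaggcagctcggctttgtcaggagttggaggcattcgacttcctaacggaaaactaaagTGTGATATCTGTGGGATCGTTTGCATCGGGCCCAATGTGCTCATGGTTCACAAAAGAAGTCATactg
The joins on either side of the choice are shown as 15 bases of exon 3 in lower case followed by 15 bases of the next exon in capitals. The exon 3 end is at position 11707904, and the next exon starts at 11748311 in Ikzf1-204 and at 11754007 in Ikzf1-202. Ikzf1-201 has the same join as Ikzf1-202, so this sequence does not tell those forms apart.
Ikzf1-204 join: gtgatcgaggcatggCCAGTAATGTTAAAG
Ikzf1-202 join: gtgatcgaggcatggGTGAACGGCCTTTCC
The additional exon of Ikzf1-203, at chr11:11740950-11741009, is entirely coding.
Ikzf1-203 exon: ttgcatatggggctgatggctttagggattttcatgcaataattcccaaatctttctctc

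For Ikzf3, Ikzf3-201 is the only annotated coding transcript in the tables, with 507 residues and all 6 fingers. It took 68.68% of TPM in replicate 1 and 69.14% in replicate 2, or 68.9% ± 0.325, and 92.2% ± 0.274 of the counts. The remaining 31.1% ± 0.332 of TPM lay on 3 transcripts with no annotated coding sequence. Of the expressed protein-coding genes with several matched transcripts, 12.9% had as large a share on such transcripts, and the median was 4.04%.

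Ikzf3-202, a processed transcript of 863 nt, accounted for 19.81% and 20.44% of Ikzf3 TPM, from 264.36 and 237.23 counts. Its TPM of 19.76 in replicate 1 had deposited bounds of 17.0 to 21.6, and its 18.46 in replicate 2 had bounds of 15.8 to 20.5. It contains exons 5 and 6 with the second, the third and the fourth fingers, then continues into a last exon of 577 nt of its own at chr11:98484267-98484843. Ikzf3-204, a processed transcript of 670 nt without finger bases, accounted for 10.82% and 9.94%, from 100.84 and 80.59 counts. Its bounds were wider for its level, 7.16 to 14.4 around 10.79 TPM in replicate 1 and 5.78 to 12.5 around 8.98 in replicate 2. The retained-intron transcript Ikzf3-203 took 0.590% ± 0.156.

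The joins after exon 6 are shown because they tell Ikzf3-202 from the coding transcript: 15 bases of exon 6 in lower case, then 15 bases of the next exon in capitals. Exon 6 ends at position 98485574 on the minus strand, and the next exon starts at 98477043 in Ikzf3-201 and at 98484843 in Ikzf3-202.
Ikzf3-201 join: acctgggggacgctgCAAGTGTGGAGGCAA
Ikzf3-202 join: acctgggggacgctgGGATTTGAACTGTCT

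For Ikzf5, Ikzf5-201, with 419 residues and all 5 fingers, took 94.21% and 97.15% of TPM, or 95.7% ± 2.08, from 527.41 and 489.15 counts. Ikzf5-202, whose 266 residues keep 1 N-terminal and both C-terminal fingers, held 3.07 and 6.85 counts. Ikzf5-203, with 107 residues and 1 N-terminal finger, held 3.03 counts in replicate 1 (4.64% of TPM) and 0 in replicate 2. The few counts of the T-cell members were spread differently in each library. The 1 count of Ikzf2 in replicate 1 lay on Ikzf2-209, which keeps 1 N-terminal finger, and the 2 in replicate 2 on the full-length Ikzf2-201. Of the Ikzf4 counts, 6.86 in replicate 1 lay on the full-length Ikzf4-201, and the 1 in replicate 2 on a transcript without a match.

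**Figure D2:**
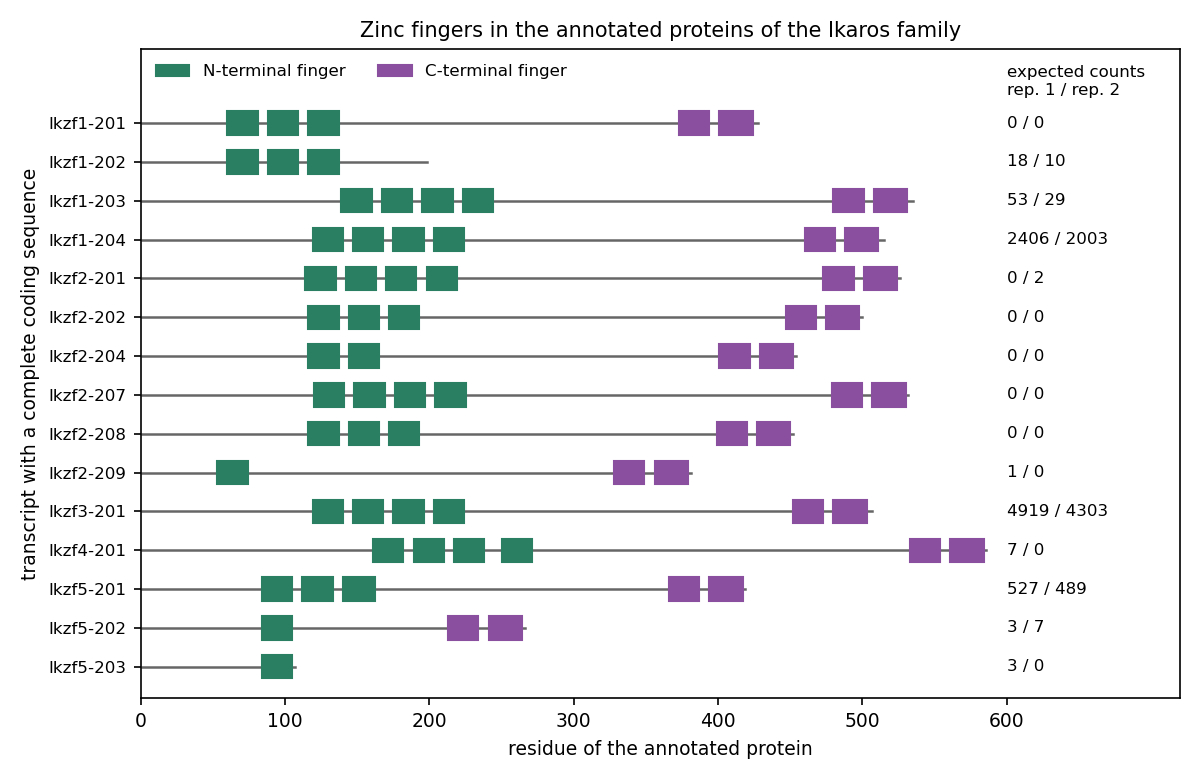
Positions of the zinc fingers along the annotated proteins of transcripts with a complete coding sequence, in residues from the first methionine, with expected counts of replicates 1 and 2 on the right. The forms with every N-terminal finger of Ikzf1, Ikzf3 and Ikzf5 hold 489 counts or more in each library apart from Ikzf1-203, and their shortened forms hold fewer than 20.

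**Figure D3:**
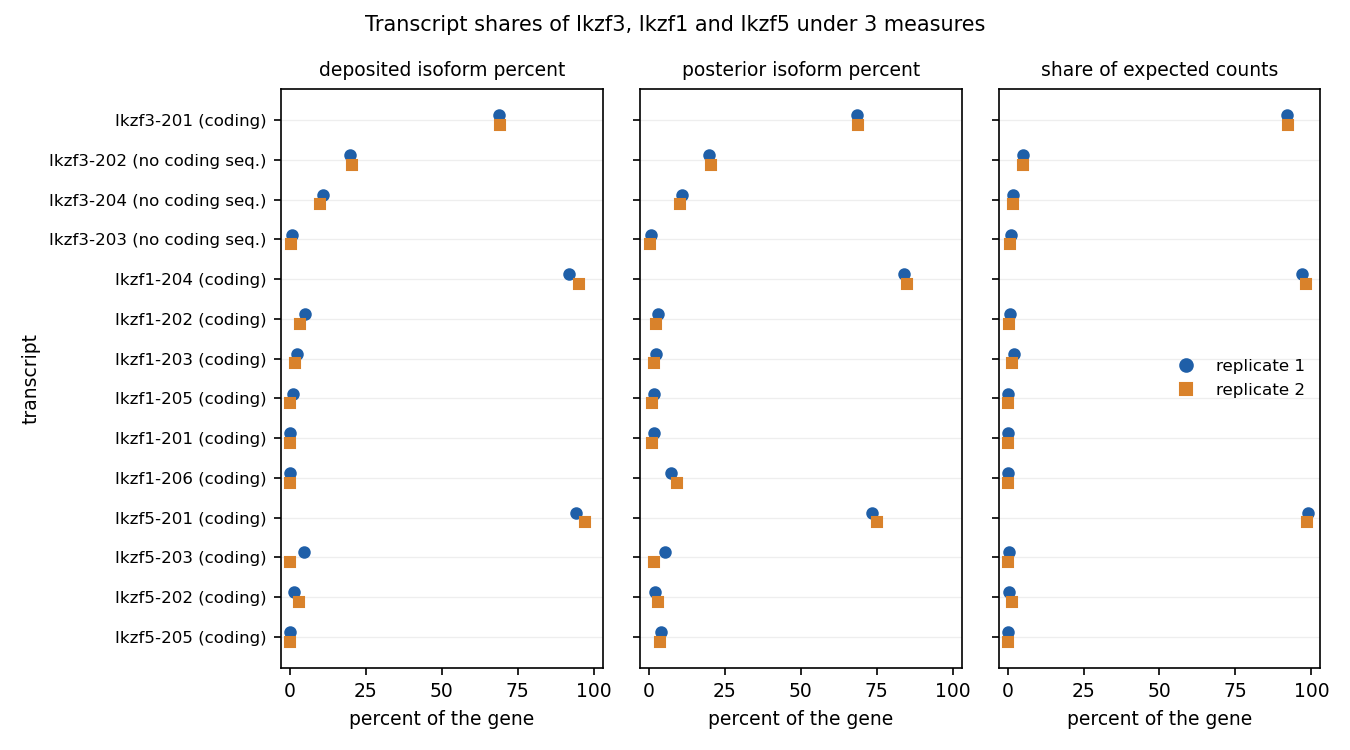
Share of each matched transcript of Ikzf3, Ikzf1 and Ikzf5 in percent of its gene, by the deposited isoform percent (left), the posterior isoform percent (middle) and expected counts (right), with replicate 1 as circles and replicate 2 as squares. The unmatched Ikzf5 transcript, with 0 counts and posterior shares of 14.95% and 16.38% in replicates 1 and 2, is not drawn. The same transcript leads each gene under every measure, and Ikzf3-201 moves from 68.9% of TPM to 92.2% of counts.

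The replicates were set against each other to see how far the levels hold between libraries. The values compared are log2(TPM + 0.5), given as replicate 2 minus replicate 1, a scale that understates differences of low genes. Ikzf1 had 21.25 TPM in replicate 2 and 25.40 in replicate 1, a difference of -0.25. The difference was -0.14 for Ikzf3 and -0.09 for Ikzf5. None of these 3 members passed 1.5-fold, which 2.69% of 11661 genes with a mean of 20 or more counts did and 1.84% did towards lower values in replicate 2.

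By an exact two-sided binomial test of counting error with Benjamini-Hochberg adjustment, the adjusted p was 1.76e-06 for Ikzf1 and 4.58e-06 for Ikzf3. Both genes were lower in replicate 2, and of the 9859 genes with whole counts 29.7% passed the same threshold, 15.4% of the 9859 as lower. Ikzf5, with a fractional count, was not tested. Among genes of 1000 to 10000 counts, 12.1% differed by at least as much as Ikzf1. Both differences exceeded counting error and lay between the 5th and the 95th percentile of genes with similar counts. Scaled to the ERCC spike-ins, synthetic RNAs added to each sample, the differences were 0.09 for Ikzf1, 0.17 for Ikzf3 and 0.26 for Ikzf5, below the median of all genes, which that scaling moved to 0.30.

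**Figure D4:**
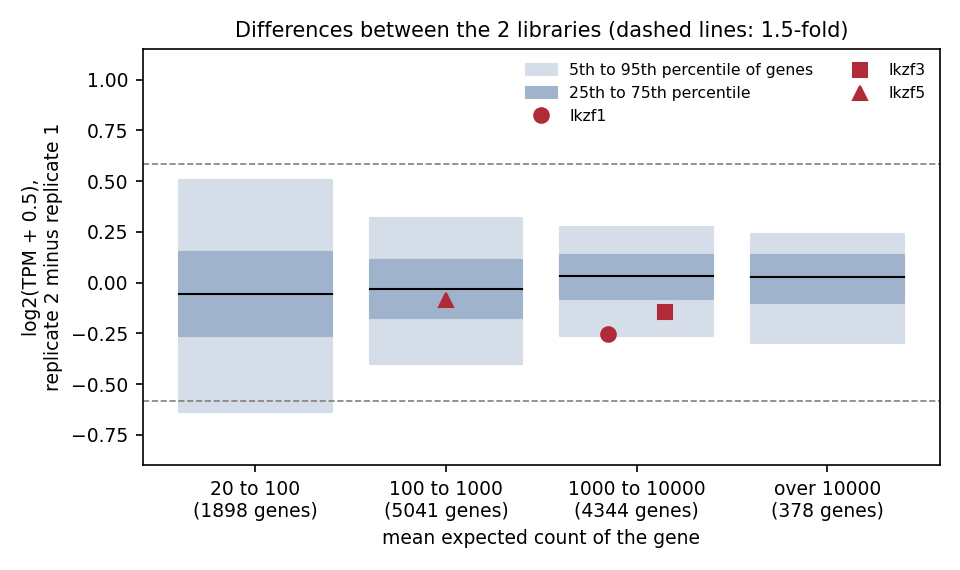
Difference between the libraries in log2(TPM + 0.5), replicate 2 minus replicate 1, by mean expected count of the gene, with bands for the central genes and a line at the median. Ikzf1 at -0.25, Ikzf3 at -0.14 and Ikzf5 at -0.09 lie inside the 5th to 95th percentile band and inside the dashed lines at 1.5-fold.

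Each expressed member was placed among 20 B-lineage transcription factors. Ikzf3 stood below 5 of them and nearest to Xbp1, a factor of antibody-secreting cells, at 100.3 ± 3.14 TPM. Ikzf1 stood below 9, and the nearest was Spi1, the ETS factor PU.1, at 27.9 ± 7.11 TPM, a difference within its SD. Ikzf5 stood below 14 by mean TPM, and the nearest was Pou2f2, which encodes the octamer-binding factor Oct-2, at 6.18 ± 0.926 TPM. Ikzf5 and Pou2f2 differed by less than their SDs, and Ikzf5 was lower in replicate 1 and higher in replicate 2. Of these factors 17 of 20 reached 1 TPM, against the 45.9% of protein-coding genes, and 3 of 5 members did. This list and those below were chosen with earlier results of these data known, so their shares beside 45.9% are descriptions only. The highest factor was Spib at 119 ± 17.1 TPM, and the lowest was Bach2 at 0.015 ± 0.00707.

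Ikaros and Aiolos recruit the nucleosome remodelling and deacetylase complex NuRD, and all 13 NuRD genes on the list reached 1 TPM, with a median of 57.7 TPM, against 45.9% and a median of 0.41 TPM over protein-coding genes. The remodelling ATPase Chd4 had 55.9 TPM in replicate 1 and 65.7 in replicate 2. The histone-binding subunit Rbbp7 was highest at 504 ± 3.89 TPM, and Gatad2b lowest at 3.28 ± 0.863. The deacetylases Hdac1 and Hdac2 had 80.6 ± 1.68 and 136 ± 11.2 TPM. Of 5 other corepressors and remodellers, 4 passed, with a median of 24.8 TPM beside the same 45.9% and 0.41 TPM, led by Sin3b at 94.8 ± 6.98 TPM, and Ctbp2, a corepressor paralogous to Ctbp1, stood at 0.395 ± 0.0778.

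Of the listed kinases and phosphatases that act on Ikaros, 8 of 8 reached 1 TPM of RNA, against 45.9% of protein-coding genes. Their median was 76.5 TPM, against 0.41 TPM, with levels from Csnk2a2, a catalytic subunit of casein kinase 2, at 9.04 ± 0.516 TPM to Ppp1ca, a catalytic subunit of protein phosphatase 1, at 479 ± 4.43. The other catalytic subunit gene of casein kinase 2, Csnk2a1, had 111 ± 0.198 TPM.

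In human cells, thalidomide analogs direct the cereblon ubiquitin ligase to Ikaros and Aiolos. All 7 mouse genes listed for this ligase and its other substrates passed, against 45.9% of protein-coding genes, with a median of 52.1 TPM against 0.41 TPM. Crbn, the substrate receptor, had 47.1 TPM in replicate 1 and 57.1 in replicate 2. The adaptor Ddb1 had 214 ± 0.134 TPM, the scaffold gene Cul4a was lowest at 20.1 ± 0.834, and the casein kinase gene Csnk1a1 was highest at 244 ± 17.6.

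Of 12 reported target genes of Ikaros in B-lineage cells, 5 reached 1 TPM, a share near the 45.9% of protein-coding genes, and their median was 0.305 TPM against 0.41 TPM. The surrogate light-chain genes Igll1 and Vpreb1, made by pre-B cells, had 2 counts or fewer per library. The recombinase gene Rag1 had 1 count in each, and Rag2 had 0 counts in both. Irf4, also one of the B-lineage factors, was the highest of those that passed, at 102 ± 11.8 TPM. Blnk, an adaptor of B-cell receptor signalling, had 80.1 ± 3.28 TPM. Myc, a growth regulator, had 32.6 ± 6.07, and Cdk6, a cell-cycle kinase, had 15.7 ± 2.56. Hes1, a Notch target, passed narrowly at 1.04 and 1.81 TPM. These levels in a line without a second condition say nothing of a response to the family.

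Of 5 partners of the family in T cells none reached 1 TPM, against 45.9% of protein-coding genes. Foxp3, the regulatory T-cell factor with which Eos acts, Tbx21 and Bcl11b had 0 counts in both libraries. Gata3 and Tox had 10 counts or fewer. The line carried its B-cell markers, 6 of 6 against the same 45.9%. They ran from the commitment factor Pax5 at 8.43 ± 0.933 TPM to the invariant chain gene Cd74 at 2359 ± 165. Markers of 6 other cell types passed in 3 of 25 genes, against the same 45.9%, and 10 had 0 counts. The regulatory T-cell list passed in 2 of its 3 genes, Il2ra at 4.25 ± 0.813 TPM and Ctla4 at 39.6 ± 2.28, but not Foxp3. The T-cell list passed in 1 of 7, Cd3g at 1.16 ± 0.226 TPM, and its Cd3e had 0 counts. The NK, myeloid, erythroid and megakaryocyte, and stroma lists passed in none, and the myeloid Cd14 and S100a8 had 0 counts. Summed levels of these 6 lists ranged from 0.240 to 46.1 TPM in replicate 1 and from 0.220 to 41.7 in replicate 2.

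**Figure D5:**
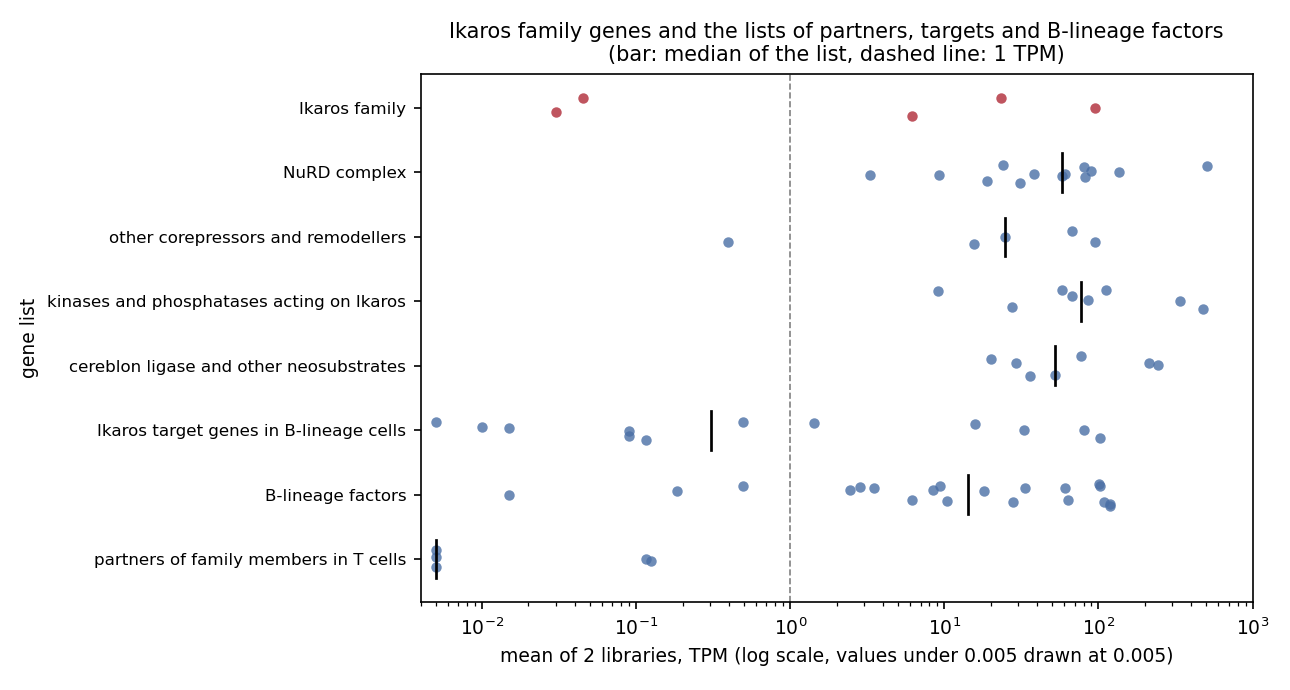
Mean level over 2 libraries in TPM on a log axis for the 5 Ikaros family genes (top, red) and for each gene of the 7 lists (blue), with a black bar at each list's median. The NuRD genes lie at 3.28 TPM or more, the target genes lie on both sides of 1 TPM, and the T-cell partners lie below it.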

How the data were processed

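RNA of CH12.LX was sequenced in 2 libraries of 1 group. The labels name total RNA in one field and poly(A)+ RNA in a further field, which was not settled here. Per the file headers and the labels, the tables refer to mm10 and GENCODE M4. Aligner, quantifier and software versions: not given in the sources used here. Expected counts, deposited by the authors, divide reads shared between features and need not be whole. TPM values were deposited by the authors over all features, spike-ins included. FPKM values, deposited by the authors, were used as an alternative. The isoform percent deposited by the authors is a transcript's share of its gene's TPM. Posterior mean TPM and posterior isoform percent, also deposited, served as alternatives. Isoform percent weights short transcripts more than their counts do.

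Symbols, types, exons and coding sequences came from GENCODE M21 on GRCm38 (mm10), matched by identifier without version and, for transcripts, by equal length. Fingers were found as 2 cysteines 2 residues apart, 12 residues, then histidine and, 3 to 5 residues on, histidine or cysteine. Proteins were aligned globally in Biopython 1.88 (gap opening -11, extension -1). Expression meant 1 TPM or more in both libraries. Neighbours in the order of levels were called apart where their libraries did not overlap and the difference exceeded the SDs. Replicate differences used a pseudocount of 0.5 and genes of 20 or more mean counts. Counting error was tested on genes whose counts were whole within 0.005. That test was checked on simulated counts that held counting error alone, so the check does not cover other variation between libraries. With 1 library a side the replicate differences compare libraries, not conditions. Alternatives used edgeR 4.0.16, R 4.3.3 and Python 3.11.15. The members and the 14 gene and marker lists were chosen with earlier results of these data known. Named were the members, their transcripts at 5% or more, and the highest and lowest gene of each of the 7 gene lists. Other genes, markers included, were named where a description needed them. Pstk, Gm12000 and the transcripts under 5% were named after their values were seen.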

Additional observations from a re-analysis of the deposited data

How the results depend on the processing

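In 190 of 234 alternatives the direction and call held, levels and shares moved by less than their SD, and counts by no more than 1.5 times. Such small shifts include 4 of 5 members at 1 or more by posterior mean TPM, where Ikzf4 passed on 7 counts and 1 count. With so few counts, the SDs of Ikzf2 and Ikzf4 isoform shares reached 70.7 percentage points, so this measure says nothing of their stability. Leaving out 1 of the 2 libraries never moves a mean by more than its SD. For levels, ratios and shares, those alternatives could therefore not fail and say nothing of stability. The order of the 3 expressed members held under posterior mean TPM, FPKM, expected counts and each library alone. By FPKM the levels were 81.0 for Ikzf3, 19.9 for Ikzf1 and 5.25 for Ikzf5, and TPM rescaled over nuclear protein-coding genes gave 125, 30.7 and 8.12, by construction of the units. Posterior mean TPM gave 7.68 for Ikzf5, 1.36 for Ikzf4 and 0.610 for Ikzf2, while the last 2 held 7 counts or fewer; the cause was not tested. On complete coding transcripts Ikzf3 had 65.5 TPM. The ratio of Ikzf3 to Ikzf1 was 3.72 by posterior mean TPM, 2.83 on complete coding transcripts and 2.22 by expected counts, which are not per length. These 3 alternatives for the ratio were added after the data were seen.

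Posterior isoform percent lowered Ikzf1-204 to 84.4%, Ikzf1-202 to 2.77% and Ikzf5-201 to 74.3%, and left 13.7% of Ikzf1 and 25.6% of Ikzf5 outside the transcripts found to encode every N-terminal finger. Of these, 4.12% of Ikzf1 and 6.13% of Ikzf5 lay on transcripts with fewer such fingers, and the rest on incomplete coding sequences or, for 15.7% of Ikzf5, a transcript with no matched structure. Shares of expected counts were 92.2% for Ikzf3-201, 5.02% for Ikzf3-202, 1.81% for Ikzf3-204, 97.6% for Ikzf1-204, 0.612% for Ikzf1-202 and 98.7% for Ikzf5-201. By counts, transcripts outside that class held 0.636% of Ikzf1, 7.83% of Ikzf3 and 1.26% of Ikzf5, and over complete coding transcripts the Ikzf3 share was 0 by construction. Spike-in scaling gave replicate differences of 0.0898 for Ikzf1, 0.17 for Ikzf3 and 0.26 for Ikzf5, with the median of all genes at 0.30. Genes past the fold numbered 314 as reported, 957 with no count filter, 126 at 100 or more counts and 49 at 2-fold. Posterior mean TPM put 1 of the T-cell partners at 1 or more.

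No paired analysis was possible because the 2 libraries form 1 group. Depth limits Ikzf2, Ikzf4 and the transcripts under 20 counts. Isoforms absent from the annotation were not measured, and 8 transcripts had no matched structure.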

Other observations

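Gm12000, annotated as antisense, lies between exon 1 and exon 2 of Ikzf1-204 at chr11:11695133-11696439 on mm10, on the strand opposite to Ikzf1, and shares 0 exon bases with it. It had 220 counts in replicate 1 and 183 in replicate 2, or 25.91 and 22.44 TPM, a mean of 24.2 ± 2.45 (SD, n = 2). In both libraries that lay close to the TPM of Ikzf1 itself, 25.40 and 21.25, on about 406 nt of effective length. Gm11999, also on the opposite strand at the start of the locus, had 2 and 4 counts. Whether the counting used strand is not given in the sources used here.

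Ikzf1-206, with an incomplete coding sequence and an effective length of 23.41 nt in replicate 1 and 22.84 nt in replicate 2, had 0 counts in both libraries, yet its posterior isoform percent was 7.38 and 9.19. An unmatched Ikzf5 transcript of 261 nt with 0 counts likewise had 14.95 and 16.38.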
